A study of Mus musculus with 6 samples.

Results

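A set of 9 genes, from the KLF, FOXO and sphingosine 1-phosphate receptor families and the related forkhead gene Foxp1, was followed in mouse Treg, CD4 T cells defined by the factor Foxp3 and known for holding immune responses in check. They are Klf2, Klf3, Klf6, Klf13, S1pr1, S1pr4, Foxo1, Foxo3 and Foxp1, 9 of the 24421 genes of the expression table, listed by name with no threshold on their values, though with earlier results of these data known. All 9 were in the table and all 9 passed the filter on low values. Wild-type Treg from spleen and lymph nodes formed 3 groups of 2 libraries each: stimulated in the presence of iBP, stimulated without it, and unstimulated. The design text presents iBP as an inhibitor of H2AK119ub1, the ubiquitin mark that Polycomb repressive complex 1 places on histone H2A, and calls the activation an in vitro one. The kind and length of the stimulus, the dose of iBP, the age, sex and strain of the mice, how the cells were purified and whether replicates came from separate animals are not given in the labels, and the tests below therefore weigh differences only against the spread of these libraries, which may be technical. By the treatment labels no library had iBP without stimulation. Poly(A) RNA was read by SMART-seq, in which oligo-dT primed cDNA is amplified by PCR, and is given as FPKM, a level per transcript length scaled to the mapped fragments of each library.

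Recirculation of T cells between blood, lymph and lymphoid organs rests on the lipid sphingosine 1-phosphate (S1P), which is rich in blood and lymph and scarce in tissue. The receptor S1PR1 senses it and lets a cell leave a lymph node, and the activation protein CD69 pulls that receptor from the cell surface. The zinc-finger factor KLF2 activates S1pr1, and the forkhead factor FOXO1 acts upstream of Klf2, Ccr7 and Il7r. Signalling from the antigen receptor through PI3K and AKT phosphorylates FOXO proteins and keeps them out of the nucleus, which in conventional T cells lowers this programme at the RNA level.

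The libraries held 366044 to 381302 summed FPKM and 12596 to 13592 genes above 0, and read depth is unknown. Unstimulated replicate 1 stood apart on the first principal component, with a score of 37.9, where unstimulated replicate 2 scored 9.32 and the stimulated libraries −13.3 to −10.5. The labelled cell type was checked against 8 Treg markers, all of them present. Foxp3 read 122 and 124 FPKM with iBP, 121 and 101 in stimulated and 35.5 and 47.1 in unstimulated libraries. Group means of Il2ra, Ctla4, Tnfrsf18 and Cd3e were also higher in stimulated than in unstimulated libraries. Those of Ikzf2 (42 against 48.4 FPKM), Cd4 (83.7 against 95.9) and Cd3g (99.5 against 105) were lower. The 8 B-cell markers were present too, among them Cd79a at 234 to 291 FPKM, where Cd4 read 83.1 to 107. They summed to 0.210% and 0.224% of all FPKM with iBP, 0.248% and 0.237% in stimulated and 0.230% and 0.242% in unstimulated libraries, against 0.457% and 0.460%, 0.452% and 0.477%, and 0.324% and 0.332% for the Treg markers. B cells also express Klf2, S1pr1, Foxo1 and Foxp1, and fewer cells of a type and less RNA per cell cannot be told apart in such bulk samples. Of 8 endothelial and stromal markers, another source of Klf2 and S1pr1 RNA, 7 were below 1 FPKM in every library, and the list summed to 0.004% to 0.0071% of a library. The exception, Pecam1, which some leukocytes also express, read 18.4 and 21.2 FPKM with iBP, 14.4 and 15.4 in stimulated and 26.8 and 24.7 in unstimulated libraries. Of 8 myeloid markers 6 were below 1 FPKM throughout, but Lyz2 read 65.5 to 99.5 FPKM, and the list summed to 0.0178% to 0.0275% of a library. None of those lists' markers was at 0 in all 6 libraries. Dendritic, CD8 and NK markers took at most 0.0038% of any library.

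Sequence windows before the transcript start were available from RefSeq (GRCm38) for 8 of the 9 genes, and S1pr1 has none in that table. Foxp1 has 3 windows and the others 1. The windows are shown for 4 genes whose unstimulated libraries were separated from all 4 stimulated ones in opposite directions. Klf2 and Klf6 were higher and Klf13 and S1pr4 lower after stimulation. Of all tested genes 9.98% were separated as higher and 11.7% as lower, and none of the 4 passed the test over all genes. For S1pr4 the nearest libraries read 44.8 FPKM (iBP replicate 2) and 45 FPKM (unstimulated replicate 1). Each window is read 5′ to 3′ on the gene's strand and stops before the first annotated exon. Capitals mark a MEF2 motif, the binding sequence of the MEF2 factors that act on Klf2, and the CACCC box that KLF proteins recognise, searched on both strands (GGGTG on the other).
Klf2, chr8:72318812-72319032, plus strand: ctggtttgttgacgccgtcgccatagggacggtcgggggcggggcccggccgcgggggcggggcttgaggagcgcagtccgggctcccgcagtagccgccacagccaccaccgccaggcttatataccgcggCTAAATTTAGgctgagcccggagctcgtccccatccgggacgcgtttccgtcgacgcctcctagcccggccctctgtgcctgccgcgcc
Klf6, chr13:5861239-5861481, plus strand: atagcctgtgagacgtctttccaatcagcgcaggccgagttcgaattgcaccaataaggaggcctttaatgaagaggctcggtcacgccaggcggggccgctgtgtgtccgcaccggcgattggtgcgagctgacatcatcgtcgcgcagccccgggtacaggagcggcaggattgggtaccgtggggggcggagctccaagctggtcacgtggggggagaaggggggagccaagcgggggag
Klf13, chr7:63938916-63939165, minus strand: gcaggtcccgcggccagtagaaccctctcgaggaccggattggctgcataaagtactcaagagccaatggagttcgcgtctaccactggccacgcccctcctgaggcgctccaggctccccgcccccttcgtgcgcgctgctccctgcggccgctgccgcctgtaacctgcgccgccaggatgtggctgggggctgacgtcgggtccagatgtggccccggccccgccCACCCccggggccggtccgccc
S1pr4, chr10:81500138-81500387, minus strand: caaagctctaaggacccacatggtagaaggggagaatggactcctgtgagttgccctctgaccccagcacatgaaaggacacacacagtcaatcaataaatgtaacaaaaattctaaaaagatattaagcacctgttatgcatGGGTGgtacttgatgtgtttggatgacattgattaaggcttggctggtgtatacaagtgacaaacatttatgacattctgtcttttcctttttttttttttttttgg
The Klf2 window holds the MEF2 match CTAAATTTAG, 118 to 109 bases before the RefSeq start, which lies beyond the end of the printed stretch because the annotated exon begins earlier. Of 32851 windows of 250 bases over the genome, 0.508% hold a MEF2 match, and none of the other 9 windows of these genes does. A CACCC box stands in 52% of all windows and in the full windows of 5 of the 8 genes. That of Klf2 lies in the exon bases left out of the printed stretch, so it is not marked there. The forkhead motif TGTTTAC, found in 3.17% of all windows on either strand, is in no window of the 8 genes. The GC box GGGCGG, which can share bases with a CACCC box, is in 32.7% of all windows and in at least 1 window of each of the 8 genes except S1pr4.

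CpG dinucleotides, which recruit the KDM2B-containing form of Polycomb repressive complex 1 where they are dense and unmethylated, were many in 7 of the 8 genes. The 250 bases of Klf2 hold 29 CpGs, more than 93.2% of all windows, and those of Foxo3 hold 31. Klf13 has 24, Klf3 23, Klf6 21 and Foxo1 20, and the 3 Foxp1 windows have 34, 3 and 11. The S1pr4 window has 0 CpGs and a GC content of 38.8%, where the median window of the genome has 6 CpGs and a GC content of 52.4%. H2AK119ub1 and the binding of its enzymes were not measured in these data, so the windows are a description only.

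**Figure D1:**
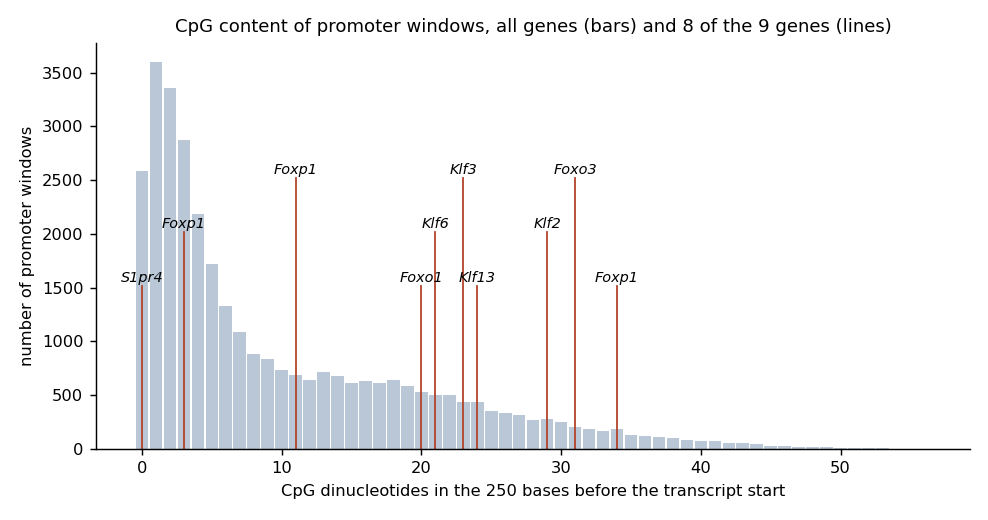
Number of CpG dinucleotides in the 250 bases before the transcript start (x axis) for all 32851 RefSeq promoter windows (bars, number of windows on the y axis) and for the 10 windows of 8 of the genes (red lines, labelled; line heights differ only to keep labels apart). Klf2, at 29, and Foxo3, at 31, lie far to the right of the median of 6, and S1pr4 lies at 0.

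On the mm10 assembly (GRCm38 coordinates from GENCODE M21) all 9 are protein-coding genes. Klf2 spans chromosome 8 from 72319033 to 72321656, S1pr1 chromosome 3 from 115710433 to 115715072, and S1pr4 chromosome 10 from 81497747 to 81500132, in a single exon. Klf3 lies at 64803388 to 64832901 of chromosome 5, Klf6 at 5861482 to 5870394 of chromosome 13 and Klf13 at 63886351 to 63938915 of chromosome 7. Foxo1 lies at 52268336 to 52353221 of chromosome 3, Foxo3 at 42181841 to 42276755 of chromosome 10, and Foxp1, the longest with 597384 bases, at 98925338 to 99522721 of chromosome 6. No other gene of the expression table, matched by its GENCODE M21 symbol, shares exon bases with any of the 9. A neighbour listed under an older symbol would be missed, and the annotation used for the FPKM values is not stated.

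The levels per transcript length ran from Klf6, at a mean of 333 FPKM over the 6 libraries, above 98.6% of the 10436 tested genes, down to Foxo3 at 2.84 FPKM, above 24.4% of them. S1pr1 came after Klf6 at 167 FPKM, then Foxp1 at 78.7, S1pr4 at 44.8, Klf2 at 40.5, Foxo1 at 14.5, Klf13 at 10.4 and Klf3 at 8.62. S1pr4 and Klf2 could not be ordered: S1pr4 was the higher in 4 of 6 libraries only. The ranges of Foxo1 and Klf13, and of Klf13 and Klf3, overlapped across libraries although Foxo1 exceeded Klf13 and Klf13 exceeded Klf3 within all 6. Within the KLF family of 17 genes in the table, Klf6 alone took 68.6% and 68.9% of the summed FPKM with iBP, 68.9% and 70.3% in stimulated and 58.8% and 62.5% in unstimulated libraries. Klf2 took 8.83% and 9.07%, 8.04% and 7.33%, and 7.78% and 7.21%. S1pr1 made up between 73.3% and 80.3% of the FPKM of the 5 S1P receptor genes in each library, and S1pr4 between 18.2% and 22.7%. Foxo1 made up between 73.2% and 87% of FOXO expression.

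**Figure D2:**
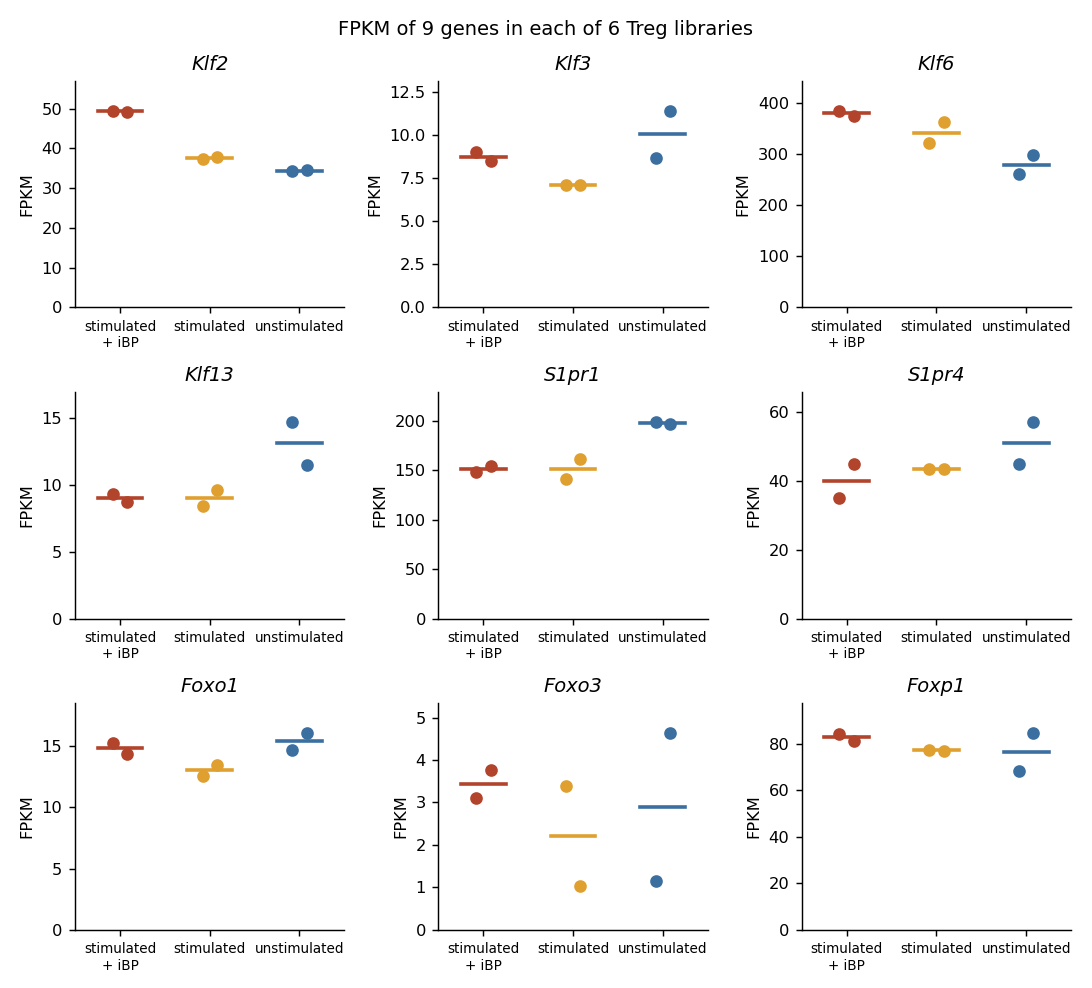
FPKM (y axes, each from 0) of the 9 genes in the 6 Treg libraries, 2 per group; points are libraries and horizontal lines are group means. S1pr1 and Klf13 are lower in all 4 stimulated libraries than in both unstimulated ones, Klf2 and Klf6 are higher, and the Foxo3 libraries of 1 group lie as far apart as 1.14 and 4.64 FPKM.

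The comparison of stimulated with unstimulated Treg asks how these genes differ after activation. None of the 9 passed the limma test over all genes (Benjamini-Hochberg adjusted p under 0.05, two-sided), where 1.29% of the 10436 tested genes did, a background at which 0 calls among 9 genes is no result about them. The smallest unadjusted p among them, 0.00569, was that of S1pr1, and 3 of the 9 were under 0.05, beside 10.8% of all tested genes. The median difference of the 9 was −0.22 on the log2(FPKM + 1) scale, against 0.00 over all tested genes. The libraries of the groups did not overlap for 7 of the 9 genes, 2 higher and 5 lower in stimulated cells, where 18.7% of all tested genes were higher and 19.1% lower without overlap.

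S1pr1, the egress receptor gene, read 141 and 161 FPKM in stimulated libraries, against 199 and 197 FPKM in unstimulated ones. Both stimulated libraries were thus below both unstimulated ones, which agreed closely with each other. The difference was −0.39 ± 0.12 (log2, SE; 95% interval −0.65 to −0.14; adjusted p = 0.172), a ratio of means of 0.761. Pecam1 was lower in the same libraries, and its part in the S1pr1 difference was not tested. S1pr4, the gene of another S1P receptor of lymphocytes, read 43.6 and 43.4 FPKM in stimulated libraries, against 45.0 and 57.2 in unstimulated ones. The groups did not overlap, but the nearest libraries differed by less than the unstimulated ones did from each other (difference −0.22 ± 0.17, adjusted p = 0.728).

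Klf2, the activator of S1pr1, did not share that direction. It read 37.4 and 37.8 FPKM in stimulated libraries, against 34.3 and 34.5 in unstimulated ones, higher without overlap by 0.12 ± 0.14 (95% interval −0.18 to 0.43; adjusted p = 0.84). Fitted standard errors pool the spread of genes at a like level, and the Klf2 pairs were unusually tight: the libraries of a group differed by 0.009, 0.012 and 0.01 on the log2 scale with iBP, with stimulation alone and without stimulation, as close as 2.32%, 3.06% and 2.41% of tested genes. The FPKM ratio of Klf2 to S1pr1 within a library was 0.335 and 0.319 with iBP, 0.266 and 0.235 in stimulated and 0.173 and 0.175 in unstimulated libraries. The 3 groups did not overlap in this ratio, which was formed after the values were seen and was not tested.

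Klf6, a KLF gene induced in many activated cells, read 321 and 362 FPKM in stimulated libraries, against 260 and 299 in unstimulated ones. Its difference of 0.29 ± 0.12 had an interval above 0 (0.04 to 0.54) and an adjusted p of 0.376. Klf13, which encodes a factor that drives late expression of the chemokine gene Ccl5 in T cells, read 8.42 and 9.59 FPKM in stimulated libraries, against 14.7 and 11.5 in unstimulated ones (difference −0.49 ± 0.22, adjusted p = 0.458). Klf3, a repressor that works through the corepressor CtBP, read 7.07 and 7.11 FPKM in stimulated libraries, against 8.67 and 11.4 in unstimulated ones (−0.44 ± 0.23, adjusted p = 0.54). For both genes the unstimulated libraries differed from each other more than the stimulated ones did.

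None of the 3 forkhead genes had an interval that left out 0. Foxo1, the forkhead factor with the leading role in T-cell homing, read 12.6 and 13.5 FPKM in stimulated libraries, against 14.7 and 16.1 in unstimulated ones (−0.23 ± 0.19, adjusted p = 0.755). Foxp1, a factor that holds naive T cells in quiescence, read 77.4 and 76.8 FPKM in stimulated libraries, both between the unstimulated 68.4 and 84.6 (0.02 ± 0.14, 95% interval −0.28 to 0.32). Foxo3, a FOXO gene with functions in Treg beside Foxo1, read 3.38 and 1.04 FPKM in stimulated libraries, against 1.14 and 4.64 in unstimulated ones. Its libraries overlapped between the groups, and its interval of −1.27 to 0.83 is the widest of the 9.

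The comparison of stimulated Treg with and without iBP asks whether these genes differ with iBP in the stimulated state. None of the 9 passed here either, where 1 gene of all 10436, or 0.00958%, did. One of the 9, Klf2, had an unadjusted p under 0.05, beside 4.77% of all tested genes. The libraries did not overlap for 5 of the 9, all higher with iBP and 0 lower, where 13.6% of all tested genes were higher and 21% lower without overlap. The 5 were Klf2, Klf3, Klf6, Foxo1 and Foxp1, and the libraries overlapped for Klf13, Foxo3 and both receptor genes. The median difference of the 9 was 0.15, against −0.03 over all tested genes.

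Klf2 read 49.5 and 49.2 FPKM with iBP, against 37.4 and 37.8 in stimulated libraries without it. This gap of 0.38 ± 0.14 (95% interval 0.08 to 0.69) was a ratio of means of 1.31. It was wider than the spread within either pair, but each pair is only 2 libraries, unusually tight for this gene. The limma test gave an unadjusted p of 0.0188 and an adjusted p of 0.998, with 0.113 to 1 over the alternatives. Klf3 read 9 and 8.46 FPKM with iBP, against 7.07 and 7.11 without (0.27 ± 0.23). Klf6 read 385 and 374 FPKM with iBP, against 321 and 362 without (0.15 ± 0.12), the highest values of that gene in the series. Foxo1 read 15.3 and 14.4 FPKM with iBP, against 12.6 and 13.5 without (0.18 ± 0.19). Foxp1 read 84.2 and 81.0 FPKM with iBP, against 77.4 and 76.8 without (0.10 ± 0.14). The adjusted p of each of these 4 was 0.998.

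S1pr1 read 148 and 154 FPKM with iBP, both between the 141 and 161 FPKM of the stimulated libraries without it. The difference was 0.01 ± 0.12, with an interval of −0.25 to 0.26. S1pr4 read 34.9 and 44.8 FPKM with iBP, against 43.6 and 43.4 without (−0.13 ± 0.17, interval −0.51 to 0.24). Klf13 read 9.30 and 8.68 FPKM with iBP, against 8.42 and 9.59 without (0.00 ± 0.22), and Foxo3 read 3.11 and 3.76 FPKM, against 3.38 and 1.04 (0.57 ± 0.48). Among the B-cell markers Cd79b read 222 and 244 FPKM with iBP, against 336 and 340 without, while Cd79a read 265 and 283, against 291 and 234. The part of B cells in the differences of Klf2 or the forkhead genes was not tested.

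**Figure D3:**
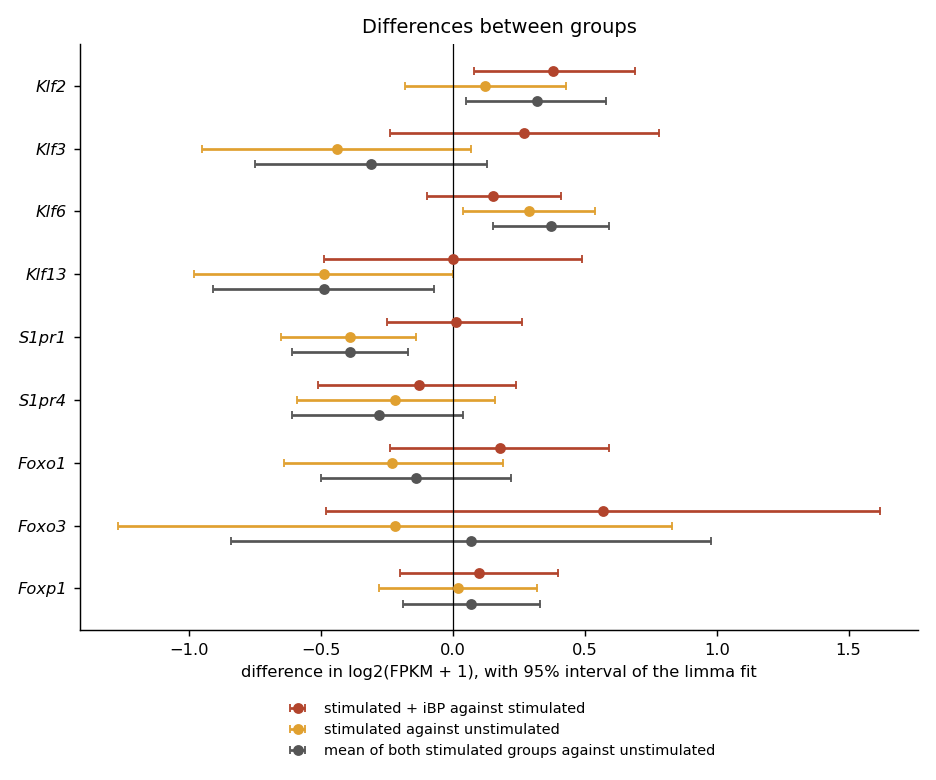
Differences in log2(FPKM + 1) for the 9 genes (x axis; points are estimates of the limma fit and bars are 95% intervals, before adjustment) in iBP against stimulated, stimulated against unstimulated and both stimulated groups against unstimulated. The S1pr1 point lies at 0.01 for iBP and at −0.39 for stimulation, and the Klf2 point at 0.38 for iBP and 0.12 for stimulation.

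Set against unstimulated cells, which the earlier comparison also used, iBP-treated Treg stood higher in Klf2 (0.51 ± 0.14, ratio of means 1.43, adjusted p = 0.118) and Klf6 (0.44 ± 0.12, adjusted p = 0.0943). None of the 9 passed, where 1.75% of tested genes did, and 4 of the 9 had an unadjusted p under 0.05, beside 12.2% of tested genes. No overlap was found for 2 higher genes, Klf2 and Klf6, and for 3 lower ones, Klf13, S1pr1 and S1pr4, where 18.1% of tested genes were higher and 23.9% lower without overlap. The Klf2 difference passed in a single alternative, without the filter on low values, at an adjusted p of 0.0384. S1pr1 differed by −0.39 ± 0.12 (adjusted p = 0.153), Klf13 by −0.49 ± 0.22 and S1pr4 by −0.35 ± 0.17. Foxo1 differed by −0.05 ± 0.19.

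Taking both stimulated groups together against unstimulated cells, with 4 libraries against 2, shares these libraries again and gives the narrowest intervals. S1pr1 differed by −0.39 ± 0.10 (95% interval −0.61 to −0.17), lower in 4 of 4 libraries, with an adjusted p of 0.0766. Klf6 differed by 0.37 ± 0.10 (adjusted p = 0.0989), Klf2 by 0.32 ± 0.12 (0.279) and Klf13 by −0.49 ± 0.19 (0.29). None passed, where 2.43% of tested genes did, and 4 of the 9 had an unadjusted p under 0.05, beside 13.3% of tested genes. The same 2 genes were higher and the same 3 lower without overlap, where 9.98% of tested genes were higher and 11.7% lower. Without unstimulated replicate 1, the library that stood apart, the differences were −0.39 for S1pr1, 0.31 for Klf2, 0.26 for Klf6 and −0.33 for Klf13.

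The genes around these 9 were taken from lists of the known parts of the pathway, and the calls among them were few. In stimulated against unstimulated cells 1.29% of all tested genes were called, so 0 calls in a short list is no result about that list. Every call named below ended when genes of low FPKM were kept, and again when the fit had no variance trend. Among the other S1P receptors and enzymes of S1P metabolism, 6 of 13 passed the filter and 0 were called in stimulated against unstimulated cells. S1pr3, a receptor gene with a low level here, read 5.80 and 6.48 FPKM in stimulated libraries, against 2.38 and 1.17 in unstimulated ones (1.4 ± 0.33, adjusted p = 0.0744), and 2.42 and 3.76 with iBP. Sphk2, one of the kinases that make S1P, and Sgpl1, the lyase that destroys it, were detected at 7.15 to 15.7 and 19.7 to 27.4 FPKM, while the other kinase gene Sphk1 stayed at or below 0.353 FPKM. Among 16 genes that act on or after S1PR1, 0 were called. Cd69, whose protein removes S1PR1 from the surface, read 340 and 379 FPKM in stimulated libraries, against 324 and 316 in unstimulated ones (0.17 ± 0.11, adjusted p = 0.653).

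Of the other KLF genes 6 of 13 passed the filter, and 0 of these were called; their median difference was −0.40, and Klf16 stood at −0.50, Klf4 at −0.46 and Klf9 at 0.65. Of 11 tested forkhead genes outside the 9, only Foxp3, the Treg lineage factor, was called in stimulated against unstimulated cells. It rose by 1.41 ± 0.16 (adjusted p = 0.000923), so that Foxp1 made up 38.4% and 42.4% of FOXP expression in stimulated libraries, against 63.8% and 62.5% in unstimulated ones. Among 19 tested genes of the PI3K and AKT pathway that acts on FOXO, 0 were called, beside 1.29% of all tested genes. Pik3r1, the regulatory subunit p85 alpha of PI3K, read 24.6 and 30.6 FPKM in stimulated libraries, against 16.9 and 15.7 in unstimulated ones (0.72 ± 0.18, adjusted p = 0.08). Both stimulated groups together passed for Pik3r1 (0.69, adjusted p = 0.0356) and, in the lower direction, for Stk4, the kinase MST1 that phosphorylates FOXO (−0.54, adjusted p = 0.032). In that comparison 2.43% of all tested genes were called. The Pik3r1 and Stk4 calls ended with the replicate number as a block (0.0781 and 0.0751) and without any 1 library except stimulated replicate 1. That of Stk4 also ended when each library was rescaled to the same FPKM total (TPM). Of 13 tested regulators and cofactors of KLF2, such as the MEF2 and ERK5 pathway genes, 0 were called, and Mef2d stood at −0.24.

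Among 17 tested FOXO target genes 1 rose, 0 fell and 13 of 17 differences were negative, with a median of −0.21, against 1.29% called and a median of 0.00 over all tested genes. The one that rose was Trib1, which encodes a pseudokinase: it read 28.0 and 21.6 FPKM in stimulated libraries, against 6.59 and 9.90 in unstimulated ones (1.49 ± 0.22, adjusted p = 0.00567; 0.0749 without stimulated replicate 1). Il7r, the interleukin 7 receptor gene that FOXO1 activates, read 25.2 and 29.8 FPKM in stimulated libraries, against 33.8 and 37.6 in unstimulated ones (−0.37, adjusted p = 0.473). Sesn1, a stress-response target, stood at −0.52 (adjusted p = 0.174) and Gadd45a at −0.57 (0.414).

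Among 16 tested homing and residence genes 1 rose and 2 fell with stimulation, beside 1.29% of all tested genes called in either direction. Rgs1, which encodes a GTPase activator that dampens chemokine and S1P receptor signals, rose by 0.96 ± 0.10 and read 850 and 873 FPKM in stimulated libraries, against 420 and 466 in unstimulated ones (adjusted p = 0.000835, and at most 0.00764 when any 1 library was left out). Rgs2, another member of that family, fell by 0.81 ± 0.14 to 104 and 97.6 FPKM in stimulated libraries, against 160 and 198 in unstimulated ones (adjusted p = 0.0166). When 1 library was left out, that call was lost without unstimulated replicate 2 (0.0806) and without either stimulated library (0.066 and 0.147). The chemokine receptor gene Ccr7 had a difference of −0.50 ± 0.10 (adjusted p = 0.0344). Its call ended without any 1 library except stimulated replicate 1, and with the replicate number as a block (0.135). TPM rescaling, median-of-ratios scaling and a fit of only the 2 groups compared also ended it. Ccr7 read 1980 and 1790 FPKM in stimulated libraries, against 2620 and 2700 in unstimulated ones.

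Of all these lists 0 genes were called between stimulated Treg with and without iBP. Only 1 of all 10436 tested genes (0.00958%) was called there, so this is no result about the lists. Rgs1 read 907 and 858 FPKM with iBP, against 850 and 873 without. Itgb7, a gut-homing integrin gene, read 67.9 and 61.7 FPKM with iBP, against 107 and 72.3 without (−0.44 ± 0.17). Set against the 122 and 120 FPKM of unstimulated libraries the iBP value was lower by a log2 difference of −0.89 (adjusted p = 0.0221), a call that ended without any 1 of the 4 libraries compared, at 0.069 to 0.201. Rac1, a GTPase of the migration machinery, likewise differed from unstimulated libraries by −1.12 (adjusted p = 0.0412), where 1.75% of all tested genes were called. Its call ended without any 1 of those 4 libraries and with the replicate number as a block (0.109). A smaller pseudocount, TPM rescaling and median-of-ratios scaling also ended it. Rac1 read 23.5 and 29.6 FPKM with iBP, against 46.7 and 25.5 without, with overlap (−0.38 ± 0.24). In stimulated against unstimulated cells it differed by −0.74 ± 0.24.

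**Figure D4:**
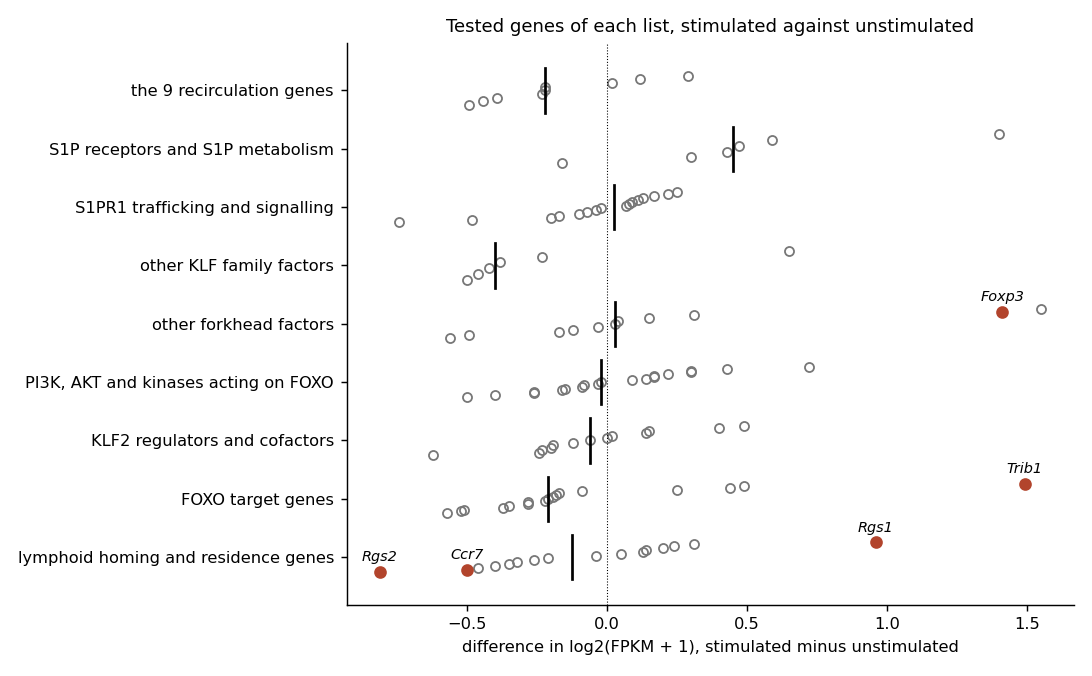
Differences in log2(FPKM + 1), stimulated minus unstimulated (x axis), for the tested genes of each list (rows); filled red points passed the test over all genes (adjusted p under 0.05), open points did not, and black bars are list medians. The 9 genes have no filled point and a median of −0.22, and Rgs1, Rgs2, Ccr7, Trib1 and Foxp3 are the filled points of the other lists.

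The genes closest to a given one were found by the root mean square distance between log2 profiles over 6 libraries after subtracting each gene's mean, among 6285 genes of at least 5 FPKM on average, predicted genes left out. Klf2 was nearest to Aldh2 (distance 0.055), Rab5c (0.073) and Usp22 (0.076), where its own profile varied by 0.22. Aldh2, a mitochondrial aldehyde dehydrogenase gene, read 11.8 and 13.4 FPKM with iBP, 9.75 and 9.48 in stimulated and 8.46 and 8.73 in unstimulated libraries. S1pr1 was nearest to Ergic1 (0.036), Phkg2 (0.037) and Stk38 (0.042), its own profile varying by 0.19. Stk38, a kinase gene of the Hippo-related NDR family, read 61.9 and 66.2 FPKM with iBP, 61.9 and 69.0 in stimulated and 85.4 and 79.2 in unstimulated libraries. Foxo1 was nearest to Anapc5 (0.043), Chd2 (0.045) and Lonp2 (0.045), with a flatter profile of its own (0.11).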

How the data were processed

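SMART-seq libraries of 6 wild-type Treg samples were analysed. The authors deposited 1 table of FPKM values with a column per library; the submitters' processing notes name HISAT2 2.2.1, StringTie 2.1.1 and the mm10 assembly. Annotation, filters, strand and treatment of multi-mapped reads are not stated in the labels, which name no molecular identifiers to separate PCR copies. Groups follow the treatment labels. Kdm2b conditional knockout Treg named in the design were not analysed here.

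Values were taken as log2(FPKM + 1), which understates changes of low genes. Genes with at least 1 FPKM in at least 2 libraries were tested, 10436 of 24421. limma 3.58.1 in R 4.3.3 fitted the 3 groups to all 6 libraries with a variance trend (3 residual and 8.52 prior degrees of freedom), with Benjamini-Hochberg adjustment over all tested genes. The fit was tested on simulated data. The 9 genes and the lists were chosen with earlier results of these data known. Named list genes are those called in any comparison or among the 3 largest differences of a list, as far as the text needs them; genes named for their role (Cd69, Il7r, Mef2d, Sphk1, Sphk2, Sgpl1, Klf7, Klf10, Gpr183) were chosen after their values were seen. Older symbols were matched for 5 list genes, and 1 list gene was not analysed here. Promoter windows are RefSeq's, coordinates GENCODE's. Figures used matplotlib 3.10.9 in Python 3.11.15. The 14 alternatives were a smaller pseudocount, no filter, a higher FPKM minimum, TPM rescaling, median-of-ratios scaling, no variance trend and the replicate block. The others fitted only the groups compared or left out each of the 6 libraries in turn. The closing section counts the 9 genes over all of them and gives numbers of called genes for part of them. Results that need withheld items are not reported here.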

Additional observations from a re-analysis of the deposited data

How the results depend on the processing

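Of 491 recomputed differences of the 9 genes, 477 kept their side of the threshold with no change of sign counted. Another 1 passed (Klf2, iBP against unstimulated, adjusted p = 0.0384 without the filter on low values, 1 of the 9 called) and 13, all with 1 library left out, changed sign. Signs were compared at 2 decimals, so Klf13 in iBP against stimulated, 0.00 in the main fit, could not count as changed. That difference ranged from −0.09 to 0.08. Genes called in stimulated against unstimulated, iBP against stimulated, iBP against unstimulated and both against unstimulated numbered 135, 1, 183 and 254. They numbered 16, 14, 21 and 29 without the filter, and 12, 0, 9 and 32 without the variance trend; the cause was not tested. Between libraries of the same replicate number, deviations from group means correlated at −0.0118 to −0.0462 over the tested genes. Such values cannot show whether the samples were paired. With the replicate number as a block, the stimulated against unstimulated count was 79 and the iBP against unstimulated count 109. Fitting only the groups compared gave 77 for stimulated against unstimulated. With 1 library left out the counts ranged from 51 to 138, from 0 to 4, from 44 to 188 and from 115 to 218, and 0 of the 9 passed in any; the lone library of a group was then assumed to vary like the others. Those refits gave iBP against stimulated differences of −0.09 to 0.1 for S1pr1 and −0.31 to 0.04 for S1pr4. Foxo3 ranged from −0.92 to 0.48 for stimulated over unstimulated, −0.35 to 1.05 in iBP against unstimulated and −0.63 to 0.77 in both against unstimulated. Foxp1 ranged from −0.13 to 0.17, −0.03 to 0.27 and −0.08 to 0.22 in the same order, and in iBP against unstimulated Klf3 ranged from −0.36 to 0.01 and Foxo1 from −0.11 to 0.01. Read depth is unknown, and Foxo3, near 3 FPKM, is the least precise of the 9.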

Other observations

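Several genes of the same families gave no value to compare. S1pr5, Klf14, Foxo6 and Mef2b are listed at 0 in all 6 libraries. Klf5 stood at 0.389 FPKM or below, and Klf12 at 0.788 or below. Klf4, a KLF gene of quiescent T cells, read 11.5 and 9.22 FPKM with iBP, 7.74 and 8.34 in stimulated and 14.2 and 9.07 in unstimulated libraries. Klf7 read 33.7 and 45.3, 38.7 and 38.4, and 47.9 and 53.6, and Klf10, a gene induced by TGF-beta, 35.4 and 28.8, 27.3 and 28.8, and 39.4 and 36.5. In each of these 3 the stimulated libraries without iBP lay below both unstimulated ones, where 19.1% of all tested genes were lower without overlap. None passed the test over all genes, and Klf7 and Klf10 were named after their values were seen. Klf9, the 1 of 6 other tested KLF genes with a positive difference (0.65), overlapped between those groups. Gpr183, the oxysterol receptor gene that guides cells to follicle borders, read 85.9 and 83.5 FPKM with iBP, against 101 and 110 in stimulated libraries without it, a log2 difference of −0.31 that did not pass (unadjusted p = 0.0255).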
